A study of Rattus norvegicus with 24 samples.

Results

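A set of 55 genes was read at low levels in cultured rat cortical cells kept in fresh growth medium and at higher levels in cells exposed to glutamate. A gene belonged to the set when its mean level was under 0.5 CPM (counts per 1000000 counts of the library) over the 12 medium libraries and at least 1.5 CPM over the 12 glutamate libraries. The 55 genes came from 32754 rows of the count table, with 11 IDs left out of the set beforehand. The genes were thus chosen by their measured CPM in glutamate and in medium, and the difference between these media is described below without a test.

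The cells were cortical cells of Rattus norvegicus, grown for 8 days in 6-well plates and then given either fresh medium or medium with 250 µM glutamate. Wells were imaged for 4 h, and the time at which RNA was taken is not stated. Each medium was combined with DMSO, a solvent that served as the control, or with an agent, IS141, AH609 or AH236, code names for which the labels give no identity, dose or timing. Each of the 8 groups had 3 libraries, and the labels name no genetic change in any group. Nothing says that the 3 libraries of a group came from separate cultures, so the p-values below measure only how far these samples vary, and that variation may be technical.

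Glutamate is the main excitatory transmitter of the cortex, and its receptors admit sodium and calcium into neurons. Calcium entry activates kinases that phosphorylate transcription factors, and a class of genes with little transcript at rest is known to be switched on in this way, some of them within minutes and others only after new transcription factors have been made. Prolonged exposure overloads neurons with calcium and can kill them, a process called excitotoxicity, and stress genes are transcribed along the way. The files pair no gene ID with a symbol, and 0 of the 55 IDs matched a name or a promoter sequence in the RefSeq tables at hand, so no role is given for any gene of the set. For the same reason the labelled cell type could not be checked against its markers. Genes are called here by their rank of mean CPM in glutamate, from gene 1, the highest, to gene 55. A group of 4 genes is also given by Ensembl ID, chosen after their values had been seen. CPM is not corrected for transcript length, so the order describes read abundance and not transcript number.

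Library totals ran from 22509400 to 35496447 counts. At these totals the set was thinly covered in medium. A gene of the set had between 1 and 161 counts over all 12 medium libraries together, with a median of 89, and between 526 and 5459 counts over the 12 glutamate libraries, with a median of 829. In medium, 40 of the 55 genes had a count in every library, 15 had none in at least 1 library, and 2 had none in 6 or more. In glutamate no gene of the set was at 0 in any library.

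One medium library stood apart within the set. The first DMSO replicate in medium had a summed level of 25.9 CPM over the 55 genes, against 10.6 and 10.2 CPM in the other DMSO medium libraries, which is 2.49 times their mean. It was above both of the others in 40 genes and below both in 6, and it was the highest of the 12 medium libraries in 21 genes. In 6 genes (genes 32, 34, 44, 48, 49 and 52) it lay more than 50% of the way from the mean of the other DMSO medium libraries to the mean of DMSO in glutamate. In 24 genes, some of them below that mean, it lay less than 5% of the way, and the median over the set was 7.07%. This percentage depends on the gene's level in DMSO glutamate, so a low value can go with a raised level. Gene 4, at 3.90%, stood at 0.259 CPM against 0 and 0 CPM in the other DMSO medium libraries. Among the 10 highest genes of the set its summed level was 4.11 CPM, against 1.04 and 1.50 CPM in replicates 2 and 3. The elevation was therefore uneven across the genes. The comparisons with DMSO that use this library are given below with and without it.

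The summed level of the 55 genes lay about 10 to 16 times higher in glutamate, depending on treatment. With DMSO the 3 libraries summed to 160, 174 and 168 CPM in glutamate, and the group means were 167 ± 6.97 CPM in glutamate and 15.6 ± 8.94 CPM in medium (SD, n = 3 in this and every later group value). With IS141 the means were 183 ± 3.48 and 18.6 ± 0.493 CPM. With AH609 they were 181 ± 8.54 and 13.5 ± 2.7 CPM, and with AH236 174 ± 7.17 and 11.7 ± 1.19 CPM. The lowest glutamate library was far above the highest medium library. The ratio of the means was 10.7 with DMSO, 9.85 with IS141 and 13.4 with AH609, and it was 15 with AH236. Without the first DMSO medium replicate the DMSO ratio was 16.1, so the position of DMSO in this order rests on that library. These are bulk libraries, in which fewer cells of a type and less RNA per cell cannot be told apart.

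**Figure D1:**
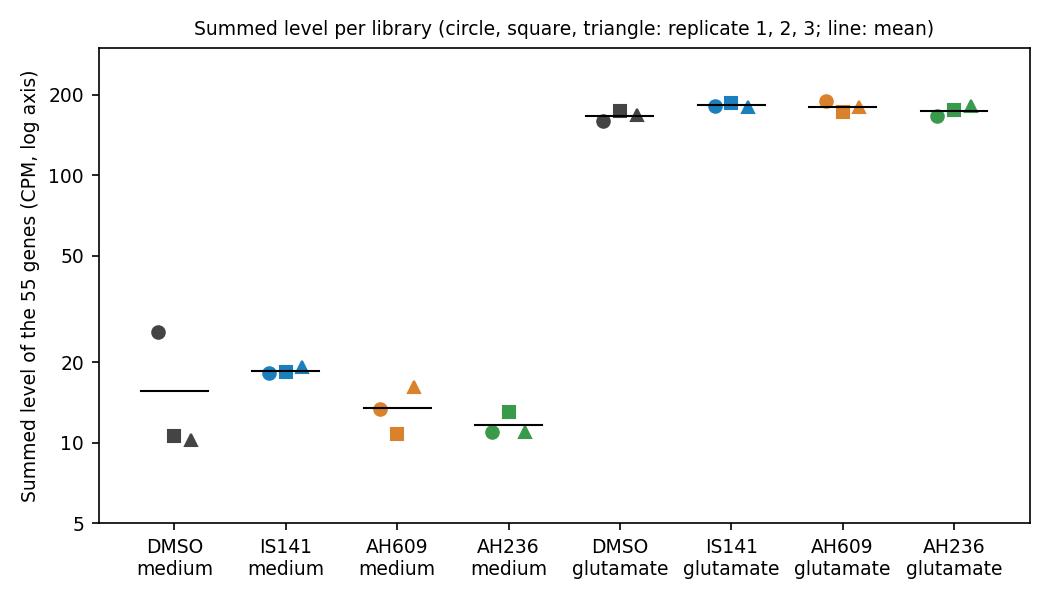
Summed level of the 55 genes in each library, in CPM on a log axis, by treatment and medium, with a line at each group mean. The 12 glutamate libraries lie far above the 12 medium libraries, and the first DMSO replicate in medium, at 25.9 CPM, lies above the other DMSO medium libraries at 10.6 and 10.2 CPM.

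Within the set, levels in glutamate covered about a single order of magnitude. Mean levels over the 12 glutamate libraries ran from 1.50 to 15.6 CPM with a median of 2.40 CPM. There were 9 genes at 5 CPM or more, 23 from 2 up to 5 CPM and 23 under 2 CPM. The 5 highest genes made up 26.6% of the summed level in glutamate, and the highest made up 8.85%. Mean levels over the 12 medium libraries ran from 0.00338 to 0.481 CPM with a median of 0.275 CPM.

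The ratio of the glutamate mean to the medium mean had a floor set by the rule and a wide range above it. Its lowest value was 3.52 and its median 10.3. It was under 5 in 11 genes, from 5 up to 10 in 15, from 10 up to 30 in 20 and 30 or more in 9. The lowest value was 3.81, the median 11.2 and these classes held 8, 18, 17 and 12 genes without the first DMSO medium replicate. The highest ratio among the 54 genes with more than 3 counts in medium was 149.5, in gene 19. In 51 of the 55 genes every glutamate library lay above every medium library. The exceptions were genes 44, 48, 49 and 55, and without the first DMSO medium replicate no gene of the set overlapped. The rule chose the genes by the means of these same libraries, so this separation is largely built in. It was not compared with all genes.

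**Figure D2:**
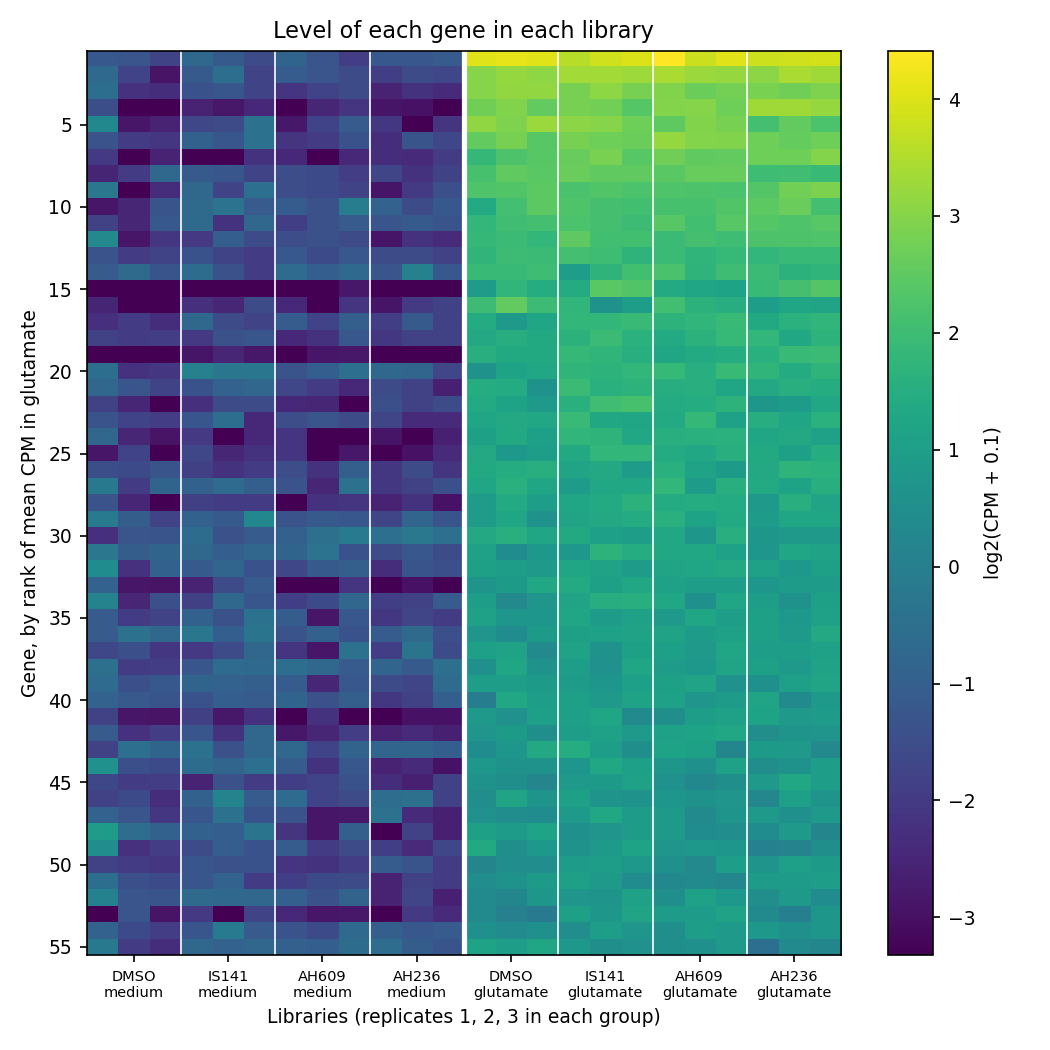
Level of each of the 55 genes (rows, ordered by rank of mean CPM in glutamate) in each of the 24 libraries (columns, 3 replicates per group), coloured by log2(CPM + 0.1). The 12 glutamate libraries on the right are brighter, with overlap in 4 rows, gene 15 is at 0 in nearly all medium libraries, and the first DMSO medium column is brighter than its neighbours in part of the rows.

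The highest gene, ENSRNOG00000056153, was read at low but steady levels in medium and at more than 10 CPM in every glutamate library. With DMSO it stood at 0.333, 0.308 and 0.200 CPM in medium and at 16.2, 17.4 and 16.4 CPM in glutamate. Its glutamate means were 14 ± 2.01 CPM with IS141, 17.2 ± 3.80 CPM with AH609 and 14.5 ± 0.494 CPM with AH236, against 16.7 ± 0.643 CPM with DMSO. The libraries of AH609 alone ran from 13.6 to 21.2 CPM and so enclosed those of every other treatment but IS141. No agent was called different from DMSO for this gene in either medium.

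Below gene 1, genes 2, 3, 6 and 8 of those that reached 5 CPM in glutamate had a trace in every medium library, genes 5 and 9 had none in 1, and genes 4 and 7 had none in several. Gene 2 ran from 0.0333 to 0.597 CPM over the 12 medium libraries (median 0.242) and from 7.96 to 10.6 CPM over the 12 glutamate libraries (median 9.49). Gene 3 ran from 0.0684 to 0.593 CPM in medium (median 0.161) and from 6.31 to 8.83 CPM in glutamate (median 7.31). Both were present throughout in medium, and their glutamate libraries lay within a narrow band. Gene 4 had no count in 4 medium libraries and at most 0.259 CPM in the others, and ran from 5.07 to 9.87 CPM in glutamate. Gene 7 likewise had none in 4 medium libraries, a highest medium level of 0.152 CPM, and 3.44 to 7.8 CPM in glutamate. The ratio of the means was 32.6 and 36.6 in genes 2 and 3 and 125 and 83.0 in genes 4 and 7, so among these 4 genes the larger ratios went with lower levels in medium and not with higher levels in glutamate.

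Gene 5 varied widely between libraries. In medium it stood at 1.11 CPM in the first DMSO replicate and at 0.0384 and 0.0667 CPM in the others. In glutamate it stood at 8.67, 7.38 and 9.49 CPM with DMSO and at 4.19, 5.81 and 4.61 CPM with AH236. These groups did not overlap, but the log2 fold change of -0.74 ± 0.324 was not called (adjusted p = 0.172, by the test described with the agents below). Without the first DMSO medium replicate, which also enters the estimate of the spread, it was -0.74 ± 0.175 and was called lower (adjusted p = 0.00445). Gene 12 had the same excess in the first DMSO medium replicate, at 1.15 CPM against 0.0384 and 0.133 CPM, and ran from 3.37 to 5.56 CPM over the glutamate libraries.

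Gene 15, ENSRNOG00000047446, was the nearest to silent in medium. It had 1 count over the 12 medium libraries, in the third AH609 replicate, at 0.0406 CPM. In glutamate it stood at 1.82, 3.27 and 2.66 CPM with DMSO, at 2.62, 5.36 and 4.87 CPM with IS141, at 2.57, 2.31 and 2.14 CPM with AH609 and at 3.59, 4.27 and 5.02 CPM with AH236. All 3 AH236 libraries lay above all DMSO libraries, while those of IS141 overlapped them. Against a floor of 3 counts over the group's medium libraries, its level in glutamate was at least 71.5-fold higher with DMSO, at least 111-fold higher with IS141 and at least 137-fold higher with AH236. Gene 19 was at 0 in the medium libraries of DMSO and AH236, and its glutamate level there was at least 72.1-fold and at least 110-fold higher.

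**Figure D3:**
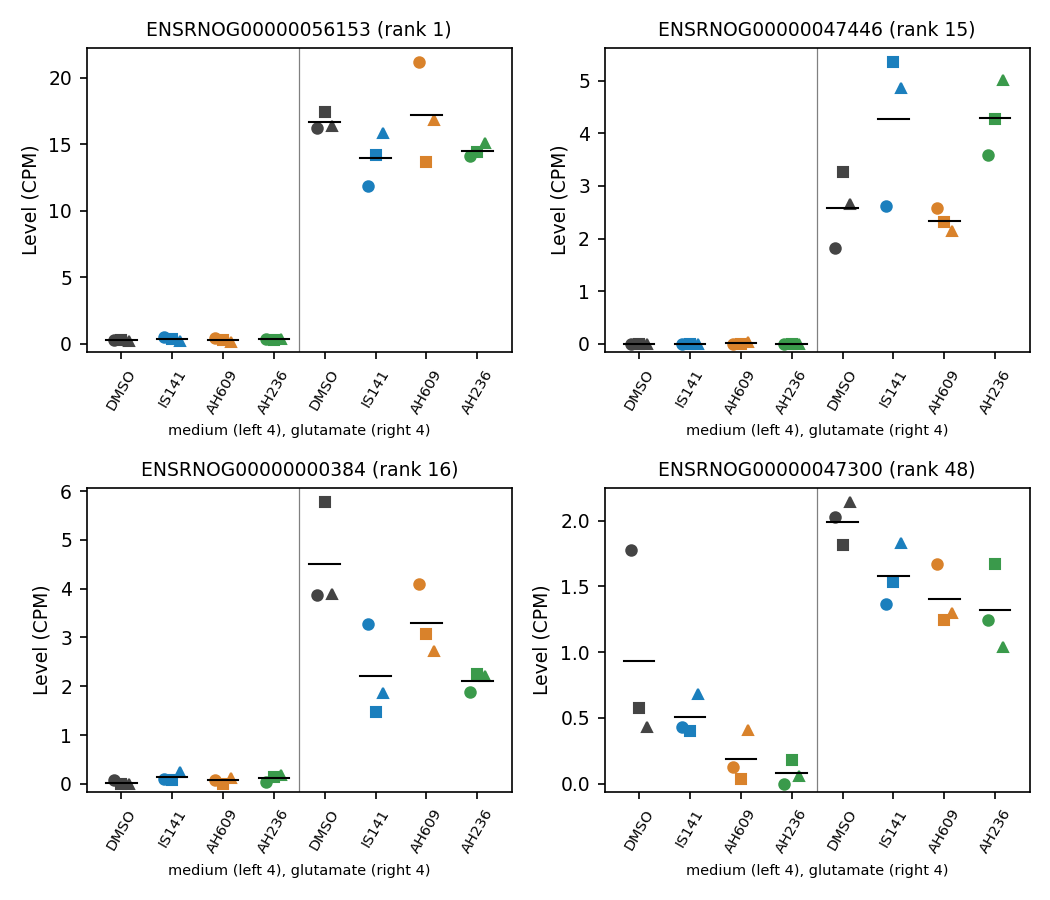
Level in CPM of 4 genes in each library, medium on the left and glutamate on the right of each panel, with circle, square and triangle for replicates 1, 2 and 3 and a line at each group mean. Genes 1, 15 and 16 lie near 0 in all medium libraries, while gene 48 reached 1.78 CPM in the first DMSO replicate in medium, close to its DMSO glutamate libraries at 1.81 to 2.14 CPM.

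The median ratio of glutamate to medium differed by less than 2 times between treatments, with bounds used where a group was at 0. Over the 55 genes it was 9.33 with DMSO (12.96 without the first medium replicate), 8.34 with IS141, 10.2 with AH609 and 15.5 with AH236. In glutamate, the highest treatment mean of a gene was between 1.03 and 2.18 times its lowest, with a median of 1.36, and it was at least 2 times the lowest in 2 genes. The DMSO mean was the lowest of the 4 treatment means in 29 genes and the highest in 8. Replicates of a group varied in glutamate with a coefficient of variation of 1.12 to 44.4%, and a median of 13.8% over the 220 combinations of gene and group. The biological coefficient of variation of the fit had a median of 14.7% over the set and of 7.2% over all genes tested.

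The thresholds of the rule divided a continuous range. The genes just inside the medium limit stood at 0.481, 0.476 and 0.460 CPM (genes 30, 20 and 36), and those just outside at 0.507, 0.512 and 0.515 CPM. At the glutamate limit, genes 55, 54 and 53 stood just inside at 1.501, 1.517 and 1.518 CPM, and the nearest outside at 1.487, 1.476 and 1.405 CPM. With TMM-scaled library sizes in place of totals, 65 genes met the rule.

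The question for the agents was whether the level of these genes in glutamate differed from that with DMSO. The rule did not compare treatments, but its means include the groups compared, so a gene near a limit can owe its place to 1 of them. Each comparison was therefore also read over the genes of the set that still met both limits with its groups left out of the means. This check was added after the data were seen. Of the 55 genes, 51, 52 and 52 stayed for IS141, AH609 and AH236 in glutamate, and 53, 52 and 52 in medium. For each change of the glutamate difference 49 stayed. Genes outside the set that such means would let in were not counted. The check thus shows which genes of the set stay, and not the set that the other groups alone would choose. All 3 agents were compared with the same 3 DMSO libraries, so the comparisons are not independent of each other. Each test below is edgeR's quasi-likelihood test in a single fit of all libraries, on log2 fold changes after TMM scaling, with Benjamini-Hochberg adjustment over the 15908 genes tested, a set that held all 55 genes. Genes with an adjusted p under 0.05 were called. Shares of all genes stand beside edgeR's calls in this fit and in the fit without the first DMSO medium library. Counts at an unadjusted p, by DESeq2 or under other settings have none beside them, and are not compared with all genes. Where all libraries of an agent lay above or below all DMSO libraries, levels are CPM by library total, without TMM scaling. Those shares of all genes are therefore not comparable with the shares of calls.

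In glutamate, 3 genes of the set were called with IS141, 0 with AH609 and 6 with AH236. Gene 16, ENSRNOG00000000384, was lower with IS141 and with AH236. Genes 17 and 22 were higher with IS141, genes 4, 7, 15 and 45 were higher with AH236, and gene 55 was lower with AH236. The direction over the whole set was mostly upward but small. The median log2 fold change was 0.22 with IS141, 0.18 with AH609 and 0.24 with AH236. Of the 55 genes, 41, 40 and 40 were above 0. Over all genes tested, 48.3, 49.6 and 48.4% were above 0.

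With IS141, 2 genes were called higher and 1 lower, beside 4.07% and 4.39% of all genes tested. Expressed as shares of 55, these counts are close to the background. All 3 IS141 libraries lay above all DMSO libraries in 15 genes of the set and below in 4, where 10.9% and 16.7% of all genes did so. Gene 16 stood at 3.88, 5.78 and 3.89 CPM with DMSO and at 3.29, 1.46 and 1.86 CPM with IS141. No IS141 library reached the lowest DMSO library, and the log2 fold change was -1.01 ± 0.271 (SE, adjusted p = 0.0216). Gene 17 stood at 2.60, 1.71 and 2.23 CPM with DMSO and at 3.39, 3.39 and 3.66 CPM with IS141, a log2 fold change of 0.69 ± 0.188 (adjusted p = 0.0225). Gene 22 stood at 2.53, 2.12 and 1.69 CPM with DMSO and at 2.94, 4.04 and 4.38 CPM with IS141, a log2 fold change of 0.86 ± 0.234 (adjusted p = 0.0226). Neither gene overlapped between the groups. No gene of the set was called without the second DMSO glutamate library or without the second or the third IS141 glutamate library. Without the second DMSO medium library 5 were called. Without the first DMSO medium library 8 genes were called higher and 1 lower, among them the 3 genes above. In that fit 7.39% of all genes tested were called higher and 7.64% lower.

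With AH609, 0 genes of the set were called in either direction by edgeR, beside 1.48% of all genes called higher and 1.14% called lower. An unadjusted p under 0.05 was reached by 6 genes, all of them higher, and DESeq2 called 1. All 3 AH609 libraries lay above all DMSO libraries in 11 genes and below in 4, against 8.06% and 13.6% of all genes tested. The smallest adjusted p was 0.0664, in gene 17, which stood at 3.08, 3.29 and 3.63 CPM with AH609 and had a log2 fold change of 0.64 with a 95% interval of 0.26 to 1.03. Gene 20 stood at 1.48, 2.16 and 2.34 CPM with DMSO and at 3.52, 2.80 and 3.72 CPM with AH609, without overlap, at a log2 fold change of 0.77 ± 0.239 and an adjusted p of 0.0846. Without the first DMSO medium library, 4 genes (genes 6, 17, 20 and 53) were called, all higher. In that fit 3.52% of all genes tested were called higher and 2.65% lower. A single gene was called without the second DMSO glutamate library, and likewise without the first IS141 medium library.

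With AH236, 4 genes were called higher and 2 lower, beside 6.17% and 4.1% of all genes tested, and these shares of the set are also near the background. All 3 AH236 libraries lay above all DMSO libraries in 10 genes and below in 9, against 8.73% and 23.7% of all genes. These levels are not TMM-scaled, and the TMM factors in glutamate were 0.898 to 0.914 with AH236 and 0.934 to 0.973 with DMSO. Without that scaling, levels with AH236 lie lower against DMSO than in the test. Gene 16 stood at 1.88, 2.26 and 2.21 CPM with AH236, less than any DMSO library, at a log2 fold change of -1.02 ± 0.273 (adjusted p = 0.0183). Gene 55 stood at 2.13, 1.88 and 2.29 CPM with DMSO and at 0.603, 1.21 and 1.07 CPM with AH236, at -1.05 ± 0.309 (adjusted p = 0.0291). In both genes every AH236 library lay below every DMSO library. Gene 55 was in the set only through its DMSO libraries, since the mean of the other glutamate groups, IS141 and AH609, was 1.47 CPM, so its call cannot be told apart from its selection. The other 5 called genes met the rule without the groups compared.

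The genes that rose with AH236 in glutamate did so by less than 1 on the log2 scale. Gene 7 stood at 3.44, 4.63 and 5.23 CPM with DMSO and at 6.43, 6.44 and 7.80 CPM with AH236, at a log2 fold change of 0.71 ± 0.194 (adjusted p = 0.0196). Gene 4 stood at 6.58, 7.59 and 5.77 CPM with DMSO and at 9.87, 9.87 and 9.06 CPM with AH236, at 0.61 ± 0.185 (adjusted p = 0.0365). In both genes the groups did not overlap. Gene 15, whose levels are given above, was at 0.81 ± 0.25 (adjusted p = 0.0465), and gene 45 at 0.68 ± 0.221 (adjusted p = 0.0487). Of these 4, gene 45 was the least stable, and it kept its call in 8 of 29 alternative settings. Gene 15 kept it in 17 of 30, gene 4 in 24 of 30 and gene 7 in 28 of 30. Many of these settings left out a library of neither group compared. Without the third AH236 glutamate library no gene of the set was called. Without the first AH236 glutamate library or the first DMSO glutamate library 1 gene was called, without the third DMSO glutamate library 2, and without the second AH236 glutamate library 3. Without the first DMSO medium library 8 genes were called higher and 3 (genes 5, 16 and 55) lower, beside 9.34% and 6.35% of all genes.

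**Figure D4:**
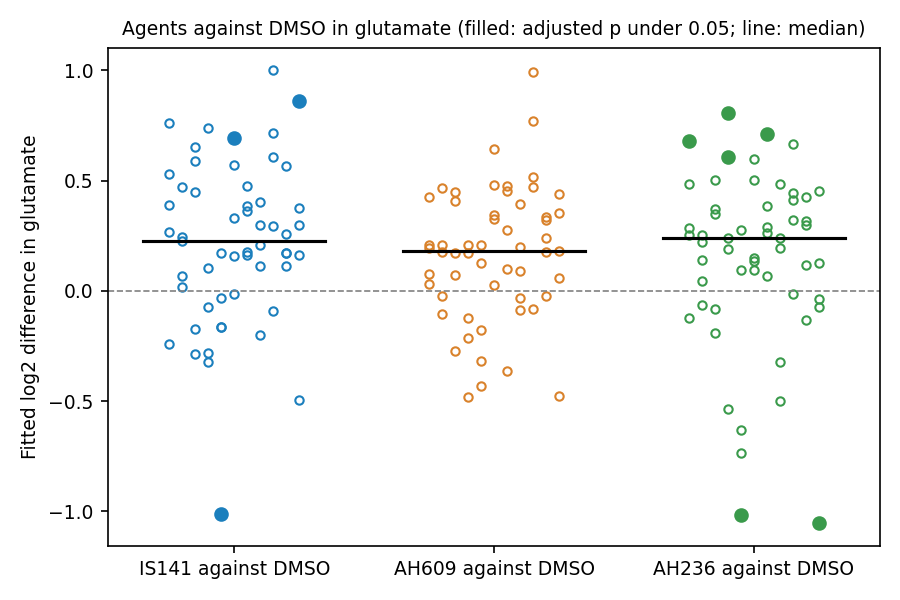
Fitted log2 fold change of each of the 55 genes (circles) for each agent against DMSO in glutamate, with filled circles for genes at an adjusted p under 0.05 and a line at the median. The medians lie at 0.22, 0.18 and 0.24, and the lowest circles of IS141 and AH236 lie near -1.

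In fresh medium, where the set was near silent, the set's level lay above DMSO with IS141 and below it with AH609 and AH236, and the direction for AH609 and AH236 rests on the first DMSO library. The summed level relative to DMSO was 1.19 with IS141, 0.865 with AH609 and 0.749 with AH236. Without that library it was 1.78, 1.29 and 1.12. The median log2 fold change was 0.37 for IS141, -0.17 for AH609 and -0.40 for AH236, and 36, 24 and 20 of the 55 genes were above 0. Without that library the medians were 0.89, 0.43 and 0.19, with 49, 41 and 29 genes above 0. The sign turned for AH609 and AH236 and held for IS141. The median for AH609 also turned, to 0.06, without the second AH609 medium library.

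With IS141 in medium, 3 genes were called higher (4.48% of all genes tested) and 0 lower (3.5%) by edgeR. An unadjusted p under 0.05 was reached by 8 genes, none of them lower, and DESeq2 called 4, none lower. All IS141 libraries lay above all DMSO libraries in 8 genes and below in 1, against 9.62% and 11.7% of all genes. Gene 20 stood at 0.593, 0.115 and 0.133 CPM with DMSO and at 0.929, 0.717 and 0.726 CPM with IS141, at a log2 fold change of 1.51 ± 0.412 (adjusted p = 0.0236). Gene 46 was at 1.79 ± 0.533 (adjusted p = 0.0384) and gene 6 at 1.25 ± 0.390 (adjusted p = 0.0483). The call of gene 6 was kept in 10 of 29 alternative settings. In gene 46 the DMSO libraries stood at 0.185, 0.231 and 0.1 CPM and those of IS141 at 0.429, 0.995 and 0.363 CPM, so the groups did not overlap. A total of 6 genes (genes 2, 6, 9, 20, 46 and 55) were called higher without the first DMSO medium library, and 0 lower. In that fit 7.18% of all genes were called higher and 4.81% lower. Without the second no gene was called, and without the third, or without the first or second IS141 library, 1 gene was.

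With AH609 in medium, 1 gene was called higher and 1 lower, beside 2.21% and 0.849% of all genes. All AH609 libraries lay above all DMSO libraries in 2 genes and below in 1, against 5.48% and 12.5% of all genes. Gene 30 stood at 0.111, 0.308 and 0.300 CPM with DMSO and at 0.422, 0.627 and 0.812 CPM with AH609, at a log2 fold change of 1.39 ± 0.378 (adjusted p = 0.0412). Gene 48, ENSRNOG00000047300, stood at 1.78, 0.577 and 0.433 CPM with DMSO and at 0.127, 0.0392 and 0.406 CPM with AH609, at -2.21 ± 0.579 (adjusted p = 0.0364). With the first DMSO medium library left out, gene 30 was at 1.06 and gene 48 at -1.35, and neither was called (adjusted p = 0.127 and 0.164). In that fit genes 20 and 55 were called higher, beside 4.46% of all genes, and 0 lower, beside 1.76%. Gene 30 was in the set through its low DMSO level in medium, since the other medium groups, IS141 and AH236, had a mean of 0.531 CPM, while gene 48 met the rule without the groups compared. Gene 20 did not meet it either, since its medium means of 0.791 CPM with IS141 and 0.402 CPM with AH236 average over 0.5 CPM. Its call cannot be told apart from its selection. No gene was called without the second AH609 medium library, and 3 were called without the third DMSO medium library. The count was 1 without the first or the third AH609 medium library, and also without any of the AH236 glutamate libraries, the first or the third AH236 medium library or the second IS141 glutamate library.

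With AH236 in medium, 1 gene was called higher and 3 lower, beside 5.55% and 4.95% of all genes. DESeq2 called 2 higher and 8 lower. Fitted with these groups alone, 12 genes of the set were tested, 0 were called and their median was 0.26. All AH236 libraries lay above all DMSO libraries in 2 genes and below in 8, against 6.81% and 17.6% of all genes. Gene 48 stood at 0, 0.180 and 0.0609 CPM with AH236, below every DMSO library, at a log2 fold change of -3.33 ± 0.637 (adjusted p = 0.00150). It was the only call lower than DMSO that held without the first DMSO medium library, at -2.47 (adjusted p = 0.00764). In glutamate the same gene stood at 2.02, 1.81 and 2.14 CPM with DMSO and at 1.24, 1.67 and 1.04 CPM with AH236, and it was not called there.

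Genes 44 and 52 were also called lower with AH236 in medium, and both were high in the first DMSO library. Gene 44 stood at 1.41, 0.269 and 0.233 CPM with DMSO and at 0.0684, 0.0899 and 0.0304 CPM with AH236, at -3.17 ± 0.672 (adjusted p = 0.00318). Gene 52 stood at 0.963, 0.308 and 0.300 CPM with DMSO and at 0.0684, 0.210 and 0.0609 CPM with AH236, at -2.07 ± 0.497 (adjusted p = 0.00770). Without the first DMSO library these differences were -1.87 (adjusted p = 0.0558) and -1.32 (adjusted p = 0.126), and neither was called. Gene 30 was higher with AH236, at 0.616, 0.749 and 0.609 CPM, with a log2 fold change of 1.49 ± 0.360 (adjusted p = 0.00800), and at 1.16 (adjusted p = 0.0546) without that library. Genes 44, 48 and 52 met the rule without the groups compared, and gene 30, at a mean of 0.512 CPM in the other medium groups, did not. In its place genes 20, 38 and 55 were called higher when the library was left out. The 3 higher calls and the 1 lower call of that fit stood beside 5.33% and 3.39% of all genes. Of the higher calls, gene 20 had medium means of 0.791 CPM with IS141 and 0.432 CPM with AH609, which average over 0.5 CPM. It did not meet the rule without the groups compared, so its call cannot be told apart from its selection. The count of calls rose to 11 without the second or without the third DMSO medium library.

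**Figure D5:**
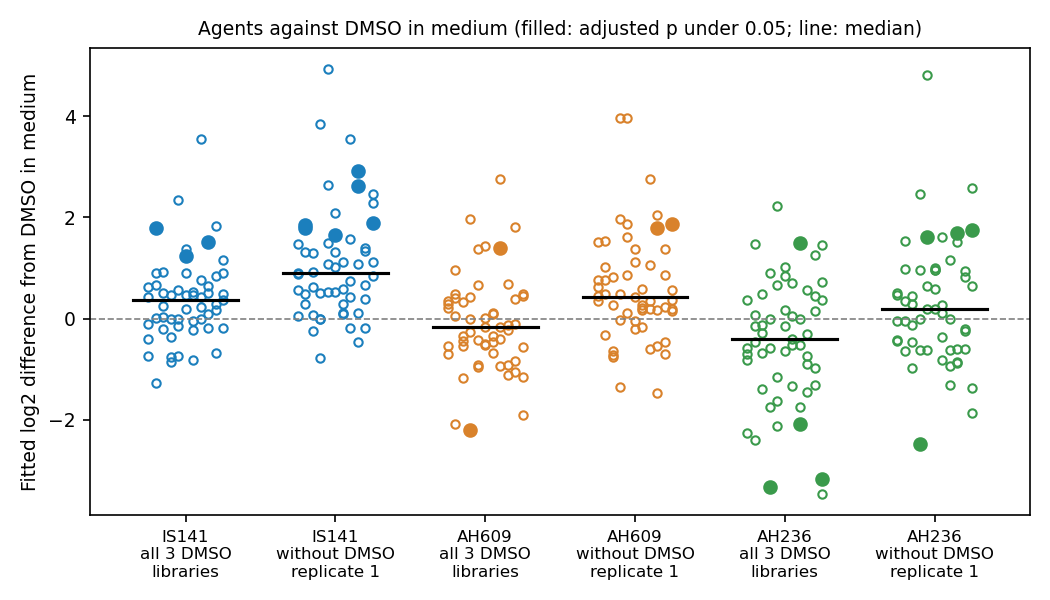
Fitted log2 fold change of each of the 55 genes (circles) for each agent against DMSO in medium, with all 3 DMSO libraries and without the first, filled at an adjusted p under 0.05, with a line at the median. Leaving out the first DMSO replicate moves the median for IS141 from 0.37 to 0.89, that for AH609 from -0.17 to 0.43, and that for AH236 from -0.40 to 0.19.

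The last comparison asked whether the difference between glutamate and medium was itself altered by an agent, as the interaction of agent and medium in the same fit. With IS141, 0 genes of the set were called by edgeR, with 0.22% of all genes tested called higher and 0.559% lower. An unadjusted p under 0.05 was reached by 6 genes, all lower, the smallest adjusted p was 0.231 and DESeq2 called 0. With AH609, edgeR likewise called 0 genes, with 0.0126% of all genes called higher and 0.0126% lower. There, 9 genes had an unadjusted p under 0.05, the smallest adjusted p was 0.346 and DESeq2 called 0. The median interaction over the set was -0.13 with IS141 and 0.37 with AH609 on the log2 scale, and without the first DMSO medium library -0.63 and -0.20. Without that library 3 genes (genes 9, 20 and 55) were called lower with IS141 and 1 (gene 55) with AH609. These stood beside 3.36% and 1.11% of all genes. With both agents 0 genes of the set were then called higher, beside 1.25% and 0.217% of all genes. Gene 55 had glutamate means of 1.47 CPM with IS141, 1.47 CPM with AH609 and 0.963 CPM with AH236, each under 1.5 CPM. It was thus in the set only through its DMSO libraries, and its calls here cannot be told apart from its selection.

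With AH236 the glutamate difference was larger than with DMSO in genes 44 and 52 and smaller in gene 30. These were 2 calls higher and 1 lower, beside 0.88% and 0.666% of all genes tested. The interaction was 3.30 ± 0.765 in gene 44 (adjusted p = 0.0300), 2.27 ± 0.575 in gene 52 (adjusted p = 0.0441) and -1.99 ± 0.422 in gene 30 (adjusted p = 0.0169), all on the log2 scale. In glutamate gene 44 stood at 1.65, 1.46 and 1.46 CPM with DMSO and at 1.31, 1.46 and 1.93 CPM with AH236, so that its groups overlapped there and the difference lay in medium. Genes 44 and 52 met the rule without the groups compared and gene 30 did not. The call of gene 52 was kept in 12 of 30 alternative settings, that of gene 44 in 23 and that of gene 30 in 29. Gene 30 differed at both ends. It was higher with AH236 in medium, and in glutamate it stood at 2.43, 2.82 and 2.23 CPM with DMSO and at 1.60, 1.67 and 1.74 CPM with AH236, although that difference alone was not called. Without the first DMSO medium library gene 30 stayed at -1.65 (adjusted p = 0.0263), gene 55 was called lower, and genes 44 and 52 were not called. Gene 55, like gene 30, did not meet the rule without the groups compared, so its call cannot be told apart from its selection. These 2 lower calls stood beside 1.63% of all genes, and 0 higher calls beside 1.45%. The median over the set, 0.68 with 38 of 55 genes above 0, was then -0.01 with 27 above 0. The count of calls was 6 without the second or the third DMSO medium library. It was 1 without the first or the third AH236 medium library, without the third AH236 glutamate library, or without the first DMSO glutamate library.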

How the data were processed

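RNA-seq counts of 24 libraries were used, in 8 groups of 3 taken from the sample titles. The deposited table holds whole-number gene counts by Ensembl ID, unnormalized. Tools named in the submitters' processing notes are STAR 2.7.8a, RSEM 1.3.3, cutadapt 2.3, FastQC 0.11.8 and bcl2fastq, with the build Rnor_6.0. What each tool did, which annotation was used and whether strand entered the counting is not given in the sources used here. The deposited counts may therefore be rounded RSEM estimates, and genes that share reads with copies, overlapping or antisense genes are uncertain. The kit was NEBNext Ultra II Directional, per the labels. A pair of AH236 glutamate titles carries the number 2, and the later library is called replicate 3.

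Levels are CPM by library total. The fit used edgeR 4.0.16 (R 4.3.3) with filterByExpr, TMM factors, robust quasi-likelihood and 1 mean per group, and gave a common biological coefficient of variation of 7.49%. The SE is the absolute log2 fold change divided by the square root of F. Alternatives were DESeq2 1.42.0, other scalings, no filter, the compared groups alone, a replicate block and leaving out each library. A further 11 IDs, of which 1 met both limits, were left out of the set beforehand and are not described here. They were not removed from the fit or from the shares of all genes.

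The genes, lists and tests were chosen with earlier results of these data known. Pathway and marker lists were fixed by symbol, and since 0 of 32754 IDs matched a symbol, none gave a result. Genes to be named were the 25 highest in glutamate, the 3 nearest on each side of each limit, up to 3 called genes per direction and comparison with the largest fold change, and members of the lists. Of the 25, those not described singly are in the heat map. Others, such as genes 32, 34, 38 and 49, were named after their values were seen.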

Additional observations from a re-analysis of the deposited data

Results flagged for a closer look

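In 3 genes of the set the difference between glutamate and medium itself differed between AH236 and DMSO, by edgeR's test of the interaction. The log2 interaction was -1.99 in gene 30, 3.30 in gene 44 and 2.27 in gene 52. The first DMSO medium library was the lowest of its group in gene 30 and the highest in genes 44 and 52, and without it the call was kept in gene 30 alone. Gene 30 did not meet the rule with these groups left out of its means. The part of that library in the other results was not tested beyond leaving it out.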

How the results depend on the processing

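Of 624 results for single called genes under alternative settings, 487 kept their call, 137 lost it and 0 turned direction. Most of these settings left out 1 library, often of a group not compared. Fitting the compared groups alone gave 6 calls for IS141, 4 for AH609 and 10 for AH236 in glutamate, and 0 for each agent in medium, where only 15, 13 and 12 genes of the set were tested, and 0 for the AH236 interaction. The AH236 medium median was then 0.26. Library totals gave 3 calls for AH236 in glutamate and 1 for AH609 in medium, the fit without a filter 1 for AH609 in medium, and DESeq2 1 for AH609 in glutamate and 10 for AH236 in medium. Libraries with the same replicate number showed little correlation (4 of 84 same-numbered pairs correlated above 0.1, from -0.20 to 0.17, and 6 of 24 libraries correlated best with their own number). This check covers only the numbering used here, and pairing by culture or batch was not tested. With a replicate block AH609 in medium had 0 calls. A check added after the data were seen counted only genes of the set that met the rule without the groups compared. AH609 in medium then had 1 call, and the other 8 counts stayed within 1.5 times. Leaving out 1 library at a time, calls ran from 0 to 9 (IS141), 0 to 4 (AH609) and 0 to 11 (AH236) in glutamate, 0 to 6, 0 to 3 and 4 to 11 in medium, and 0 to 3, 0 to 1 and 1 to 6 for the interactions. In medium the AH609 median ran from -0.39 to 0.43 and the AH236 median from -0.58 to 0.19, and those of the interactions ran from -0.63 to 0.11, -0.20 to 0.58 and -0.0052 to 0.81. The set held 91 genes at a glutamate limit of 1 CPM, 32 at 2 CPM, 21 at a medium limit of 0.25 CPM and 168 at 1 CPM. It held 67 without the first DMSO medium library, 54 of them shared. The cause of these changes was not tested, and neither was the part of the smaller number of genes tested in the fit of the groups alone. Levels in medium rest on few counts per library. The counts of calls in this paragraph stand without shares of all genes.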

Other observations

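The opposite rule, under 0.5 CPM in glutamate and at least 1.5 CPM in medium, was met by 21 genes, and by 14 with TMM-scaled library sizes, fewer than the 55 and 65 genes near silent in medium. The number was also 21 without the first DMSO medium library. No ID was left out in counting the 21 genes by library totals, and on that footing 56 genes met the rule of the set.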
